A study of Mus musculus with 9 samples.

Results

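Glycolysis and the pentose phosphate pathway were described in the polyA RNA of mouse bone marrow mononuclear cells, for 32 listed genes. Members were taken by symbol from the authors' deposited RNA table. Of the 32, 26 were matched among its 22942 rows, and all 26 had a mean over both groups of at least 1 FPKM (fragments per kilobase of transcript, scaled to sequencing depth). The members Hk1, Hk3, Eno1, Tkt, Pfkfb2 and Pfkfb3 were not matched to a row, so their RNA was not analysed here, and they appear only in the promoter sequences.

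The cells were of strain B6.SJL (CD45.1) and had received retroviral vectors. The control group carried the empty pair, Control (MSCVneo +MSCVpuro). The other group carried the leukemia fusion gene MLL-AF9 in the first vector and the same empty second one, MLL-AF9 (MSCVneo-MLL-AF9+MSCVpuro), so both groups share the MSCVpuro virus. Labels list 3 RNA samples per group and do not say whether these came from separate animals or for how long the cells had grown. The table holds 1 pooled value per gene and group, so no spread between libraries can stand beside a value. Each test quoted is the authors' own q-value, whose method is not given in the sources used here. Where 1 value is set against another below, the MLL-AF9 value comes first.

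Glycolysis splits glucose into pyruvate in the cytosol, and lactate dehydrogenase turns pyruvate into lactate for export. Its early steps (hexokinase, phosphofructokinase and aldolase) are served by isozymes of different genes, while regulatory kinases set how fast sugar enters and how much pyruvate goes on to mitochondria. The pentose phosphate pathway branches off at glucose 6-phosphate and gives NADPH and ribose 5-phosphate. Granulocytes rely heavily on glycolysis and use NADPH to feed their oxidative burst, whereas dividing progenitors need ribose for nucleotides.

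Of the 26 members, 3 were called lower in MLL-AF9 cells, by the authors' deposited table at a q-value under 0.05, and 0 were called higher. The 3 were Slc2a3, a high-affinity glucose transporter, Slc16a3, a lactate exporter, and Pfkfb4, a kinase and phosphatase that sets the level of the phosphofructokinase activator fructose 2,6-bisphosphate. Most core enzyme RNAs from Gpi1 to Pkm2, and that of Ldha, were abundant, and no core enzyme passed in either direction. Of the 5 measured pentose phosphate enzymes, 4 had lower values in MLL-AF9 cells, also without passing.

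The share called among the members was close to that of the whole table. Among the 11538 rows whose mean reached 1 FPKM, 10.3% passed at a q-value under 0.05, compared with 3 of 26 members (11.5%). By direction, 5.13% of all rows were called higher and 5.20% called lower, compared with 0 and 3 members. At an unadjusted p under 0.05 in the authors' deposited table, 2 members were higher (Aldoc and Pdk1), against 11.5% of all rows. On the same unadjusted basis 4 members were lower (Ldhb and the 3 called), against 8.32% of all rows. On the log2(FPKM + 1) scale, a difference of 2-fold or more was seen for 2 members that were higher and 4 that were lower, the same 6 genes. The corresponding shares of all rows were 10.9% and 8.36%.

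The median log2 change of the 26 members, on the log2(FPKM + 1) scale with control subtracted from MLL-AF9, was -0.02. Over all 11538 rows it was 0.29, so values of the typical row were shifted upward by that much, and member changes are to be read against it. Of the members, 9 lay above and 17 below this general median. Between the 10th percentile of all rows at -0.84 and the 90th at 1.05 lay 19 of the 26. The 7 outside were Aldoc and Pdk1 on the upper side, and Pgd, Slc16a3, Ldhb, Pfkfb4 and Slc2a3 on the lower.

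**Figure D1:**
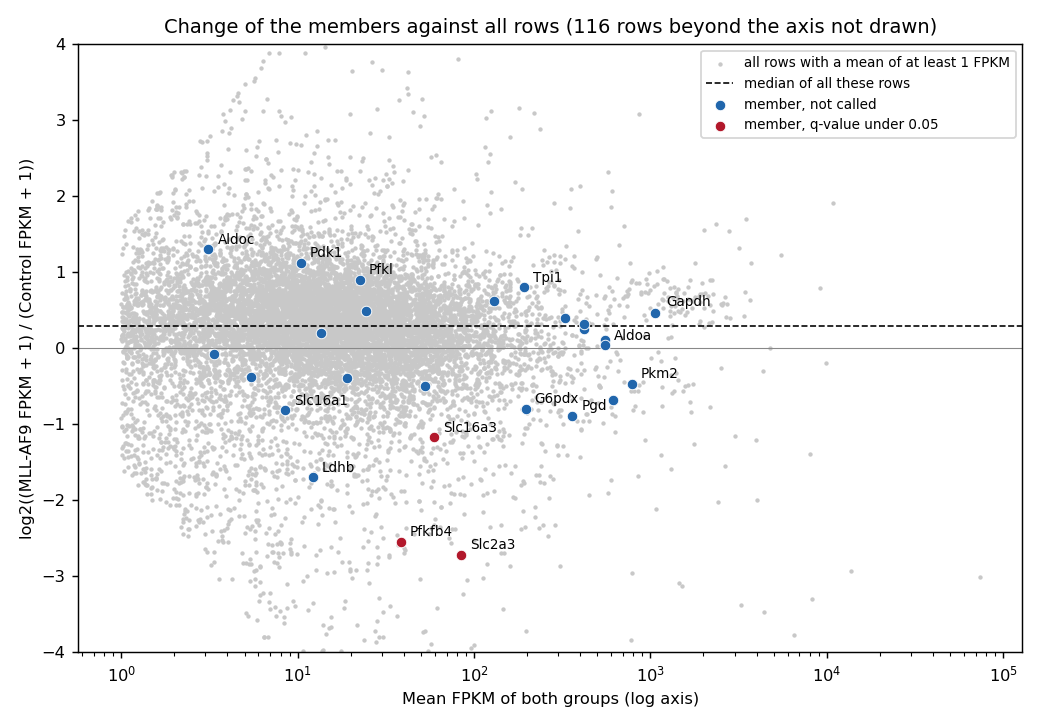
Log2 change of each row (vertical axis, MLL-AF9 minus control on the log2(FPKM + 1) scale) against its mean FPKM over both groups (horizontal log axis). Grey points are all rows whose mean reached 1 FPKM, except 116 rows beyond 4 or -4, the dashed line is their median of 0.29, blue points are members that were not called, and the 3 red points are the called members Slc16a3, Pfkfb4 and Slc2a3, all at the lower side.

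Sugar and lactate transporters held 2 of the 3 calls. Slc2a3 encodes GLUT3, a glucose carrier typical of neurons and white blood cells. It was at 21.5 FPKM in MLL-AF9 cells, against 147 FPKM in control, 6.84-fold lower, with q = 4.79e-05 in the authors' deposited table. Slc2a1, which encodes the widely expressed carrier GLUT1, was at 14.6 FPKM in MLL-AF9 cells, against 12.6 FPKM in control (in the authors' deposited table, q = 0.875), and with the general shift subtracted its value turned lower. Among the related genes, Slc2a6, which encodes the carrier GLUT6, was at 38.4 against 46.2 FPKM (in the authors' deposited table, q = 0.825). Summed over the 5 carriers of this family in the lists (Slc2a1, Slc2a3, Slc2a5, Slc2a6 and Slc2a8), the level was 83.7 against 209 FPKM, 2.49-fold lower in MLL-AF9 cells. Slc2a3 made up 70.3% of this sum in control and 25.6% in MLL-AF9 cells, and Slc2a6 22.1% and 45.9%. Of these 5, the carrier with the highest level per length was thus Slc2a3 in control and Slc2a6 in MLL-AF9 cells, although the value of Slc2a6 itself was not higher. Other genes of this family were not analysed here.

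Slc16a3 encodes MCT4, a low-affinity carrier that exports lactate from glycolytic cells. Its RNA was at 36.2 FPKM in MLL-AF9 cells, against 82.9 FPKM in control, 2.29-fold lower, with q = 3.27e-06 in the authors' deposited table. Slc16a1 encodes MCT1, which carries lactate in either direction. It stood at 5.85 against 11.1 FPKM (in the authors' deposited table, q = 0.353), a 1.90-fold difference that did not pass. Both carriers had lower values, and the share of Slc16a3 in their sum was similar, at 86.1% in MLL-AF9 and 88.2% in control cells. Slc16a7, a related gene of the same family, was at 3.26 against 2.84 FPKM (in the authors' deposited table, q = 0.927). With it added, the share of Slc16a3 was 79.9% in MLL-AF9 and 85.6% in control cells.

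Values of the regulatory kinases differed in direction, with 1 call among 3 genes. Pfkfb4 was at 10.5 FPKM in MLL-AF9 cells, against 66.5 FPKM in control, 6.31-fold lower, with q = 5.17e-05 in the authors' deposited table. Pdk1 encodes a kinase that switches off pyruvate dehydrogenase and so keeps pyruvate out of the mitochondrial citrate cycle. It was at 14.6 FPKM in MLL-AF9 cells, against 6.18 FPKM in control, 2.37-fold higher in value, with p = 0.0200 and q = 0.128 in the authors' deposited table. Its isozyme Pdk2 was at 3.26 against 3.49 FPKM (in the authors' deposited table, q = 0.963). Pdk3, a related gene of the same family, had the highest level of the 4 kinases in both groups, at 26.8 against 28.0 FPKM (in the authors' deposited table, q = 0.964). Of the summed FPKM of Pdk1 to Pdk4, Pdk1 made up 32.6% in MLL-AF9 cells and 16.2% in control cells.

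Markers of mature granulocytes, lymphoid and erythroid cells were lower in the same comparison as the 3 called members, while monocyte and macrophage markers differed in direction. Of 13 listed late granulocyte markers 11 were matched. Of the 10 kept, 9 were called lower and 0 higher. Their summed level was 22103 FPKM in MLL-AF9 cells, against 195331 FPKM in control, 8.84-fold lower. S100a8 alone held most of this sum, at 16211 against 130850 FPKM, 8.07-fold lower. Single markers ran from 1.75-fold lower in value (Itgam, not called) to 172-fold lower (Retnlg). S100a9 was left out because it is listed at 0 in control with p = 1 in the authors' deposited table, and no other granulocyte marker was at 0. Of 9 B lymphoid markers 8 were called lower (summed level 37.2 against 637 FPKM), of 8 T and NK markers 8 (26.7 against 194 FPKM), and of 8 matched erythroid markers 6 (17.4 against 234 FPKM). Of 9 monocyte and macrophage markers 4 were called lower, C1qa, C1qb, C1qc and Fcgr1, and 0 higher, with summed levels of 186 and 201 FPKM. The values of 4 others were higher without passing, with Cd14 at 25.3 against 13.2 FPKM, Emr1 at 35.3 against 20.7, Cx3cr1 at 35.8 against 23.8 and Csf1r at 82.4 against 81.3. For 4 primary granule genes of early granulocytes, 0 were called in either direction with summed levels of 4093 and 2754 FPKM. Of these 4, 3 had higher values (Elane, Prtn3 and Ctsg), while Mpo was lower in value at 627 against 927 FPKM. Ptprc, the pan-leukocyte marker CD45, was at 142 FPKM in MLL-AF9 cells, against 257 FPKM in control. The part of these cell types in the member values was not tested, and in bulk RNA fewer cells of a type and less RNA per cell cannot be told apart.

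**Figure D2:**
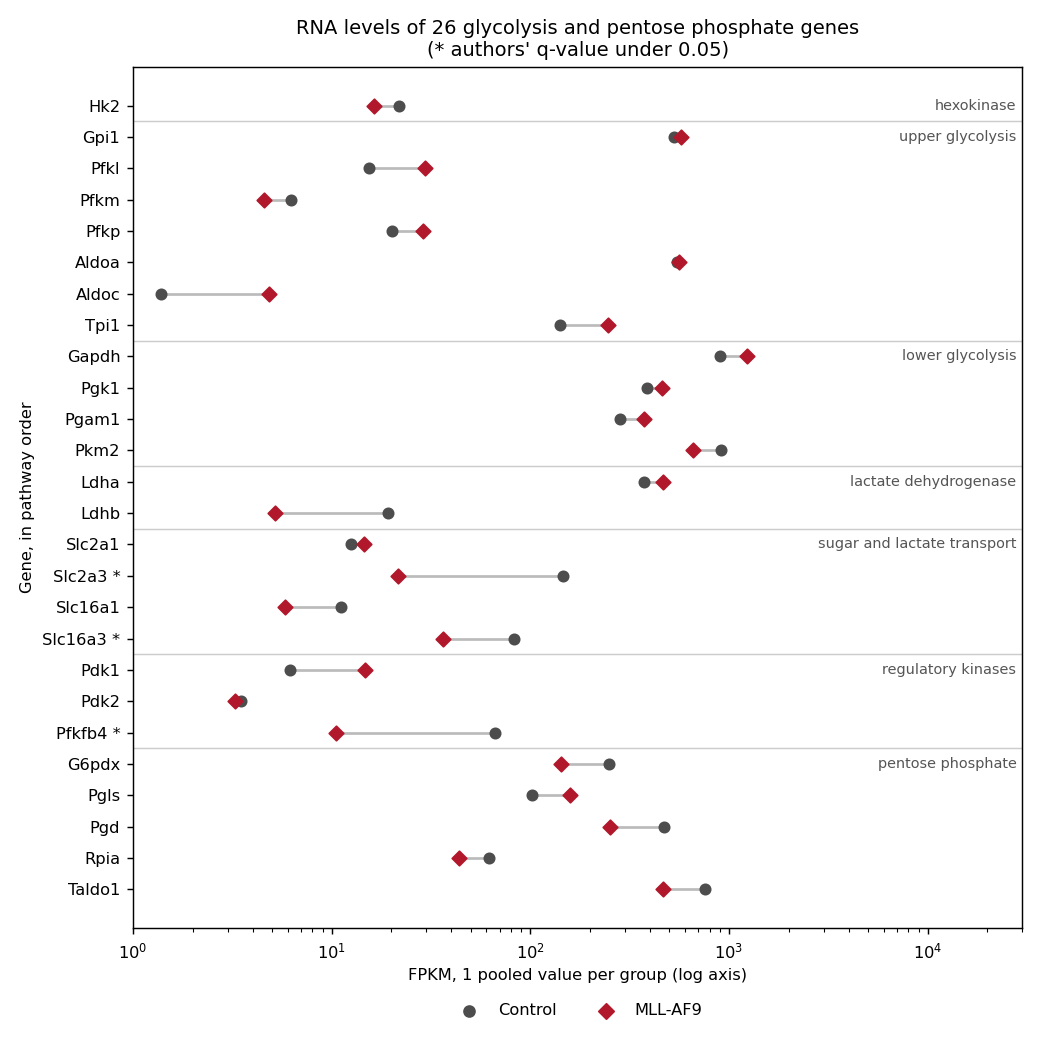
FPKM of the 26 matched members (log axis), 1 pooled value per group, with control as grey circles and MLL-AF9 as red diamonds joined by a line, in pathway order. Genes with an asterisk, Slc2a3, Slc16a3 and Pfkfb4, had a q-value under 0.05, and most core enzymes lie above 100 FPKM in both groups with short lines.

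Hexokinase, which traps glucose in the cell by phosphorylation, was measured through Hk2 alone. Hk2 was at 16.3 FPKM in MLL-AF9 cells, against 21.7 FPKM in control (in the authors' deposited table, q = 0.713), a 1.33-fold difference that did not pass.

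In upper glycolysis, 0 of 7 genes were called and 1, Aldoc, was below an unadjusted p of 0.05 in the authors' deposited table. In MLL-AF9 cells 6 of them had higher values, or 4 once the general shift of 0.29 was subtracted, where Gpi1 and Aldoa turned lower. The median log2 change was 0.49, or 0.19 with the shift subtracted. Gpi1 and Aldoa had nearly equal values in both groups. Gpi1, which turns glucose 6-phosphate into fructose 6-phosphate, was at 572 FPKM in MLL-AF9 cells, against 530 FPKM in control. Aldoa, the main aldolase of most tissues, was at 560 against 545 FPKM. Tpi1, which interconverts the 2 triose phosphates, was at 245 against 140 FPKM, 1.74-fold higher in value (in the authors' deposited table, q = 0.422). Aldoc, known as the brain aldolase, was 3.52-fold higher in value at 4.86 against 1.38 FPKM, with p = 0.0438 and q = 0.212 in the authors' deposited table. It made up 0.252% of the summed aldolase FPKM in control and 0.860% in MLL-AF9 cells, so Aldoa was nearly all of the aldolase RNA in both groups.

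Phosphofructokinase, the main control point of glycolysis, had RNA from all 3 of its genes. Pfkl, the liver type, was at 29.6 FPKM in MLL-AF9 cells, against 15.4 FPKM in control, 1.92-fold higher in value (in the authors' deposited table, q = 0.279). Pfkp, the platelet type, was at 28.7 against 20.2 FPKM and Pfkm, the muscle type, at 4.58 against 6.26 FPKM. Summed over the 3 genes, phosphofructokinase RNA was at 62.9 against 41.9 FPKM. Pfkp made up the largest share in control cells at 48.2%, while in MLL-AF9 cells Pfkl (47.1%) and Pfkp (45.7%) were close. Pfkm had the smallest share in both groups, at 7.29% in MLL-AF9 and 15.0% in control cells.

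In lower glycolysis, 0 of 4 measured genes were called, 0 were below an unadjusted p of 0.05 in the authors' deposited table, and log2 changes ran from -0.47 to 0.46. Higher values in MLL-AF9 cells were seen for 3 of them, or 2 with the general shift subtracted, where Pgk1 turned lower. Gapdh, which makes the first NADH of the pathway, had the highest mean level of the matched members, at 1239 FPKM in MLL-AF9 cells, against 900 FPKM in control (in the authors' deposited table, q = 0.777). Pgk1, which makes the first ATP, was at 459 against 386 FPKM, and the mutase Pgam1 at 373 against 283 FPKM. Pkm2, which makes pyruvate in the last step, was the member of this group with a lower value, at 656 against 911 FPKM (in the authors' deposited table, q = 0.775). The row stands for the gene now named Pkm, so its M1 and M2 splice forms are not separated. Enolase has no matched member, but a row named Gm5506, the RefSeq gene Eno1b and a copy of Eno1, was at 226 against 250 FPKM (in the authors' deposited table, q = 0.919). Reads of Eno1 and this copy may be shared, which was not tested. Genes such as Gapdh also have processed pseudogenes in the mouse, and how the authors placed reads with several matches is not given in the sources used here.

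Lactate dehydrogenase RNA was almost all Ldha, the subunit typical of tissues that make lactate. Ldha was at 465 FPKM in MLL-AF9 cells, against 375 FPKM in control (in the authors' deposited table, q = 0.836). Ldhb, the subunit typical of heart and other oxidative tissues, was at 5.21 against 19.2 FPKM. This 3.69-fold lower value had p = 0.0106 and q = 0.0826 in the authors' deposited table and so did not pass. Ldhb was 4.85% of the summed FPKM of Ldha, Ldhb and Ldhc in control and 1.11% in MLL-AF9 cells.

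**Figure D3:**
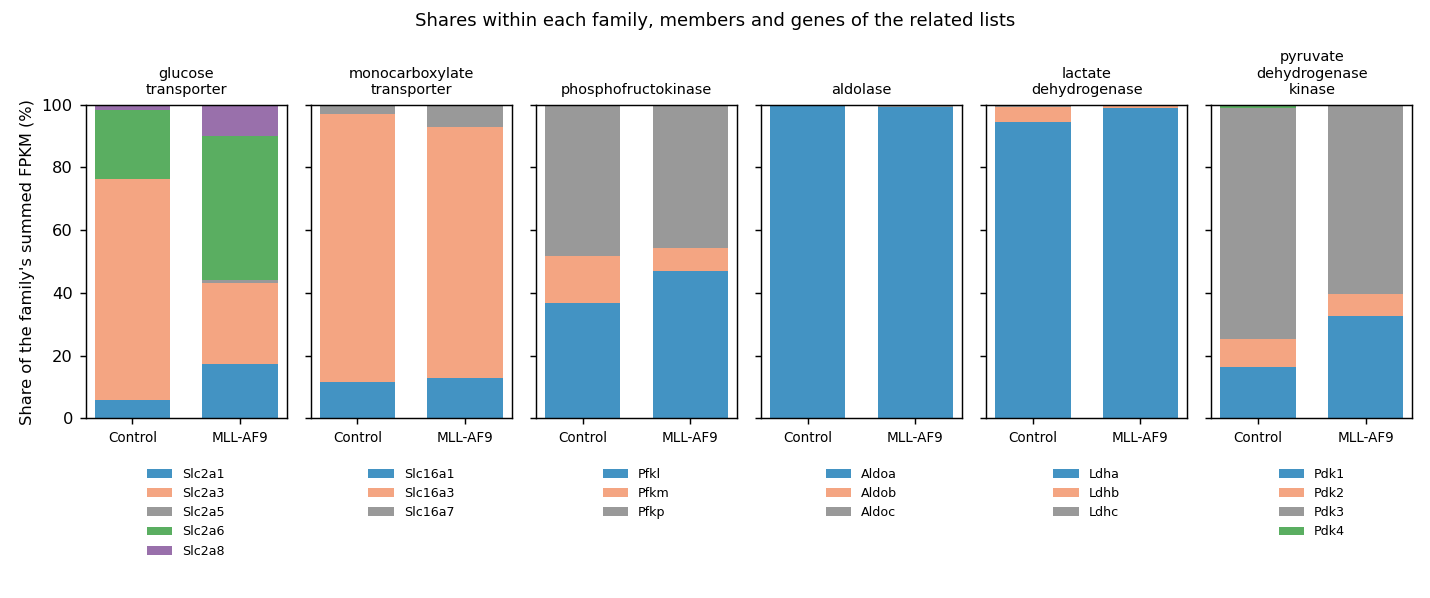
Share of each gene in the summed FPKM of its family (vertical axis, percent), in control and MLL-AF9 cells, over the matched members and the genes of the same family in the related lists, for 6 families. In the glucose transporter panel, which covers 5 Slc2a genes including the fructose carrier Slc2a5, Slc2a3 stands at 70.3% in control and 25.6% in MLL-AF9 cells. Pdk3 holds most of the pyruvate dehydrogenase kinase bar in both groups, and the aldolase bars are nearly alike.

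Pentose phosphate enzymes were abundant, and 0 of the 5 measured were called, nor was any below an unadjusted p of 0.05 in the authors' deposited table. Of the 5, 4 had lower values in MLL-AF9 cells, also with the general shift subtracted and under quantile normalization, and the median log2 change was -0.69. G6pdx, the rate-limiting glucose 6-phosphate dehydrogenase, was at 143 FPKM in MLL-AF9 cells, against 249 FPKM in control, 1.75-fold lower in value (in the authors' deposited table, q = 0.476). Pgd, the second NADPH-making dehydrogenase, was at 253 against 469 FPKM, 1.85-fold lower in value (in the authors' deposited table, q = 0.470). Pgls, the lactonase between these 2 steps, was the exception, at 158 against 102 FPKM (in the authors' deposited table, q = 0.534). In the branch that rearranges sugars without oxidation, Taldo1 (transaldolase) was at 467 against 756 FPKM and Rpia (ribose 5-phosphate isomerase) at 43.8 against 62.2 FPKM. Summed over the 5 genes, the level was 1064 FPKM in MLL-AF9 cells, against 1638 FPKM in control, 1.54-fold lower. For upper glycolysis this sum was 1.15-fold higher and for lower glycolysis 1.10-fold higher in MLL-AF9 cells. A sum follows its most abundant genes, so these ratios cannot be read against the general median. The median log2 change was 0.49 for upper and 0.32 for lower glycolysis. With the general shift subtracted these medians were 0.19 and 0.03, and that of the pentose phosphate genes was -0.99. Whether the branches differ was not tested.

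High abundance was shared by 12 of the 26 members, which had a mean above 100 FPKM: Gpi1, Aldoa, Tpi1, Gapdh, Pgk1, Pgam1, Pkm2, Ldha, G6pdx, Pgls, Pgd and Taldo1. Of all 11538 rows 993 reached that level. None of the 12 was called (0 at an unadjusted p under 0.05 as well, in the authors' deposited table), and their log2 changes were at most 0.89 in size. In the whole table, 103 of the 993 rows at that level (10.4%) were called. Median level was 71.8 FPKM for the members and 14.5 FPKM for all rows, and 11 members were among the top 5% of rows by mean.

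Other genes around the pathway were given by 8 further lists with 101 genes, none of them a member. Of these, 100 were matched and 82 had a mean of at least 1 FPKM. In total 5 were called higher and 3 lower, or 9.76% of the 82, which is again close to the 10.3% of all rows.

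Of 14 further isozymes and sugar-handling genes whose mean reached 1 FPKM, 3 were called lower and 0 higher, compared with 5.2% and 5.13% of all rows. The median log2 change of the 14 was -0.26. Slc2a5, the fructose carrier GLUT5, had a mean under 1 FPKM and so was not counted, at 1.04 against 0.00882 FPKM (in the authors' deposited table, q = 0.000455). Adpgk, a glucokinase that uses ADP in place of ATP, was at 73.5 FPKM in MLL-AF9 cells, against 541 FPKM in control, 7.36-fold lower (in the authors' deposited table, q = 0.000299). Its control level was above that of Hk2, the 1 hexokinase measured, at 21.7 FPKM. Pklr, the pyruvate kinase of liver and red cells, was at 1.38 against 6.83 FPKM (in the authors' deposited table, q = 0.000447). Erythroid markers were lower in the same comparison, as given above, and the part of erythroid cells in the Pklr value was not tested. Ldhc, the testis lactate dehydrogenase, was at 0.0575 against 2.31 FPKM (in the authors' deposited table, q = 0.000402).

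Around pyruvate dehydrogenase, 1 of 12 genes was called higher and 0 lower, compared with 5.13% and 5.2% of all rows. The median log2 change of the 12 was 0.28, or -0.01 with the general shift subtracted. The called gene was Pdpr, the regulatory subunit of the phosphatase that reactivates pyruvate dehydrogenase, at 9.02 FPKM in MLL-AF9 cells, against 1.83 FPKM in control (in the authors' deposited table, q = 0.0296). Brp44, the older name of a mitochondrial pyruvate carrier subunit (Mpc2), was at 27.1 against 76.9 FPKM and did not pass (in the authors' deposited table, q = 0.0785). The other carrier subunit, Brp44l (Mpc1), was at 104 against 102 FPKM.

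Other pentose phosphate genes had higher values in 6 of 6 cases, or in 5 with the general shift subtracted, where Rpe turned lower, and 0 were called. Prps1, which makes the activated ribose for nucleotides, was at 30.7 against 16.4 FPKM (in the authors' deposited table, q = 0.347), and Rpe, the epimerase beside Rpia, at 36.2 against 35.1 FPKM. Among 4 gluconeogenic genes 0 were called. Fbp1, which reverses the phosphofructokinase step, was at 6.96 against 3.22 FPKM (in the authors' deposited table, q = 0.487).

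Hypoxia factors and targets outside glycolysis were taken as a list because hypoxia-inducible factor is a known activator of glycolysis genes. Of 15 genes 2 were called higher and 0 lower, compared with 5.13% and 5.2% of all rows. The median log2 change of the 15 was 0.48, or 0.18 with the general shift subtracted. Ddit4, a stress-induced inhibitor of mTOR signalling, was 4.98-fold higher at 33.2 against 6.67 FPKM (in the authors' deposited table, q = 0.00400), and the growth factor Vegfa was 1.62-fold higher at 17.1 against 10.6 FPKM (in the authors' deposited table, q = 0.0391). Bnip3 and Ero1l, each 1.63-fold higher in value, did not pass (in the authors' deposited table, q = 0.535 and q = 0.495). Hif1a itself was at 27.4 against 19.4 FPKM (in the authors' deposited table, q = 0.642). Among 7 general regulators of glycolysis 0 were called. Myc was at 31.5 against 19.9 FPKM (in the authors' deposited table, q = 0.329), and Txnip, which curbs glucose uptake, at 179 against 250 FPKM (in the authors' deposited table, q = 0.340). The authors' deposited table gave an unadjusted p under 0.05 for 0 of these 7 regulators. The count was also 0 for the 4 gluconeogenic and the 6 other pentose phosphate genes. It was 2 of the 15 hypoxia genes, 3 of the 14 further isozymes and 3 of the 12 pyruvate dehydrogenase genes. In the lists described further below, it was 3 of the 10 glycogen genes and 1 of the 14 genes around NADPH. Of all rows, 11.5% were below this p and higher, and 8.32% below it and lower.

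**Figure D4:**
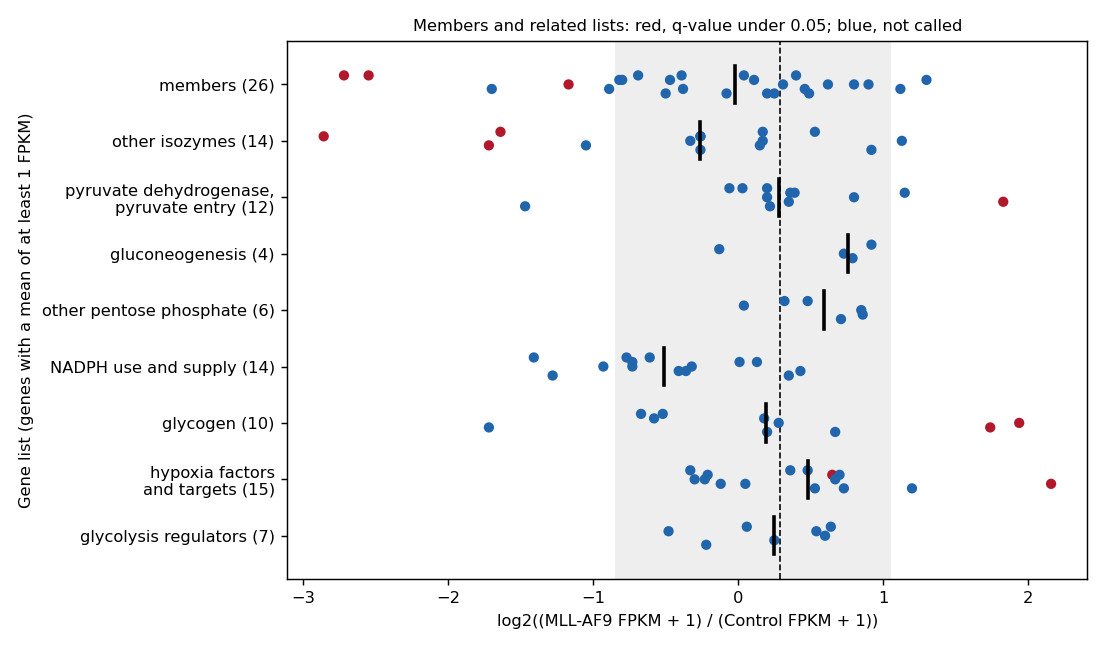
Log2 change (horizontal axis, MLL-AF9 minus control on the log2(FPKM + 1) scale) of the 26 members and of 8 related lists, each point a gene whose mean reached 1 FPKM, red where the q-value was under 0.05, and the black bar the list's median. The grey band runs from -0.84 to 1.05, the 10th and 90th percentiles of all rows, and the dashed line is their median of 0.29. The members Slc2a3 and Pfkfb4 and the related gene Adpgk lie left of -2.

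Promoter sequence was available from RefSeq (build GRCm38.p6) for 31 of the 32 listed genes, as windows from 250 bases before to 50 bases after a start site. Slc2a3 was not among them. They were searched on both strands for ACGTG, the core of the site bound by hypoxia-inducible factors, and for the E-box CACGTG, which MYC and USF proteins bind and which itself contains ACGTG. Among the 25 genes with a window that are matched to the RNA table, 14 had a window with ACGTG (56%), compared with 29.7% of 7630 genes matched by symbol to rows whose mean reached 1 FPKM. For CACGTG it was 4 of 25 (16%), compared with 12.1%. The 6 unmatched members add 4 genes with ACGTG (Hk1, Hk3, Pfkfb2 and Pfkfb3) and 2 with CACGTG (Pfkfb2 and Pfkfb3). All 31 genes together thus had 18 with ACGTG (58.1%) and 6 with CACGTG (19.4%), compared with 21.8% and 8.09% of the 27025 genes of the whole promoter table, which are not limited to measured rows. Counted over windows, since some genes have several, ACGTG was in 44.4% of the 36 windows of the matched members and 26.1% of the windows of the 7630 genes. These are descriptions of letters, and no binding was measured.

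The 250 bases before the start are printed for the called members Slc16a3 and Pfkfb4, and for Ldha, whose window held the most matches counted over both strands (5, in 3 places) and whose RNA was not called. All 3 lie on the plus strand of GRCm38.p6, at chr11:120948817-120949066, chr9:108991652-108991901 and chr7:46845554-46845803. Letters in capitals mark ACGTG on either strand.
Slc16a3: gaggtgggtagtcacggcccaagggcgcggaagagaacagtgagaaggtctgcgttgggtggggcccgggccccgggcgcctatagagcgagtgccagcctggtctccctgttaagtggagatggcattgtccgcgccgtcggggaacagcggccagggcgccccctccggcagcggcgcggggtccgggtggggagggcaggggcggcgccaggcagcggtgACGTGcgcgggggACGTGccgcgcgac
Pfkfb4: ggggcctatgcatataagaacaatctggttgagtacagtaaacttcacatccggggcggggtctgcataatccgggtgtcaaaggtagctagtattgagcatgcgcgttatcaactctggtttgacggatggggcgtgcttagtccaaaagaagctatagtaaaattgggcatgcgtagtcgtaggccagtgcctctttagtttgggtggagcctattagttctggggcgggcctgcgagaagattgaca
Ldha: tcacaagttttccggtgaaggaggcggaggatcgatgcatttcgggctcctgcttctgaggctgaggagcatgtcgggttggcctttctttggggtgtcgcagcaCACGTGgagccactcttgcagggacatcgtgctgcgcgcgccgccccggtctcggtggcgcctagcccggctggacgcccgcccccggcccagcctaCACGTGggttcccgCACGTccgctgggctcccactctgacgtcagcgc

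The Slc16a3 window holds ACGTG in 2 places, starting 27 and 14 bases before the start site, and the Pfkfb4 window holds none. In the Ldha window the E-box letters occur in 2 places, and a further ACGTG lies on the opposite strand, starting 34 bases before the start. The called members thus include one window with and one without these letters, while Ldha, with the most, was at 465 against 375 FPKM.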

How the data were processed

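The authors deposited 1 table of RNA values, with 1 value per gene and group. The labels list 3 control and 3 MLL-AF9 polyA libraries, and the header does not say which of them lie behind each value. The header names no unit. From the values and the tools, the authors' unit was taken to be FPKM. The authors' deposited p-value and q-value per row were used as they stand. Per the submitters' processing notes, the tools were TopHat 1.4.1, Cufflinks 1.3.0, Bowtie 0.17.2, CASAVA 1.8.2 and MACS 1.4 with build mm9, and neither roles nor settings are stated. The labels' protocols speak of duplicates for RNA although 3 samples per group are listed. They name the TruSeq RNA kit, which does not keep strand, so antisense reads are not separated.

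Rows with a mean of both groups of at least 1 FPKM counted as tested, except S100a9, a failed estimate. A call is the authors' q-value under 0.05. Log2 changes use a pseudocount of 1, which understates low genes, and folds are ratios of FPKM. No test was computed anew, as planned for a table without values per library. Among 707 rows above 0 and under 0.05 FPKM in both groups, 169 had the same ratio of 1.25 (log2 rounded to 2 decimals). If this is 1 read in each group, the MLL-AF9 depth was 0.801 of the control depth. Absolute depth is unknown.

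The members and lists were chosen with earlier results of these data known. All members may be named, as may every called gene of a related list and uncalled ones with their values. Alternatives were other minimum levels, q-value thresholds, pseudocounts and scalings. The calculation was tested on simulated data. The 5hmC regions are in mm9, for which no annotation was used here, and were not analysed, nor was the input library. Python 3.11.15, numpy 2.4.6, pandas 2.3.3 and matplotlib 3.10.9 were used.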

Additional observations from a re-analysis of the deposited data

How the results depend on the processing

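The 3 lower calls and the 0 higher calls among members did not change under the other minimum levels and q-value settings. With no minimum level, 6.28% of all rows were called in either direction, and with a minimum mean of 5 FPKM 9.36%. With a q-value under 0.01 the share was 6.81%. With p-values adjusted anew over rows with a mean of at least 1 it was 10.2%. In the related lists, the 5 higher calls became 3 with a q-value under 0.01, where Pdpr and Vegfa no longer passed. The 3 lower calls became 1 with a minimum mean of 5, which leaves fewer genes. With no minimum the higher calls were 6, the added gene being Slc2a5. The median log2 change of the members was -0.03 with a pseudocount of 0.1, where that of all rows was 0.32. With a pseudocount of 5 it was 0.00, against 0.21 over all rows. After median centring it was -0.31, against 0.00, and after quantile normalization -0.19, against 0.08. With a minimum mean of 5 it was -0.17, against 0.29. The direction of 26 members was kept under both other pseudocounts, of 22 under median centring and of 24 under quantile normalization. After median centring the log2 change of Gpi1 turned to -0.18, of Aldoa to -0.26, of Pgk1 to -0.05 and of Slc2a1 to -0.09, and after quantile normalization that of Aldoa to -0.02 and of Slc2a1 to -0.07. None of these 4 was called. No paired analysis was possible because the table has no value per library, and for the same reason no library could be left out. Unknown depth and spread limit what can be said of uncalled members.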

Other observations

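Glycogen genes and a list of genes around NADPH, which border the pathway at glucose 6-phosphate and at the pentose phosphate dehydrogenases, were measured in the same table. The median log2 change of 10 glycogen genes was 0.19, or -0.11 with the general shift of 0.29 subtracted. Of these 10, 2 were called higher and 0 lower, compared with 5.13% and 5.2% of all rows. Both were subunits of phosphorylase kinase, which activates glycogen breakdown: Phka2 was 4.04-fold higher at 60.7 against 15.0 FPKM (in the authors' deposited table, q = 2.28e-07), and Phkb 3.55-fold higher at 40.1 against 11.3 FPKM (in the authors' deposited table, q = 0.00707). Phkg2, a catalytic subunit, was at 41.0 against 35.6 FPKM. Pygl, the liver-type glycogen phosphorylase that this kinase activates, was 3.32-fold lower in value at 130 against 432 FPKM and did not pass (in the authors' deposited table, q = 0.0678).

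The list around NADPH use and supply also holds glutathione and thioredoxin genes that do not use NADPH themselves (Gclc, Gclm, Gpx1 and Txn1). Of its 14 genes whose mean reached 1 FPKM, 0 were called in either direction and 10 had lower values in MLL-AF9 cells. The median log2 change of the 14 was -0.51. Below an unadjusted p of 0.05 in the authors' deposited table was 1 gene, Txn1. Cybb, the catalytic subunit of the phagocyte NADPH oxidase, was at 172 against 419 FPKM, and its partner Cyba at 603 against 1028 FPKM, neither of them passing. Txn1, a thioredoxin, was at 185 against 493 FPKM (in the authors' deposited table, q = 0.0784). Late granulocyte markers were 8.84-fold lower in summed level, most of it S100a8, in the same comparison. The part of granulocytes in the values of this list was not tested.

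The q-value of Slc16a3, 3.27e-06 in the authors' deposited table, goes with a 2.29-fold difference, whereas Ldhb with a 3.69-fold difference did not pass. Among 73 other rows with a mean within a factor of 2 of that of Slc16a3 and a log2 change within 0.2 of its own, a set chosen after its values were seen, 11 were called (15.1%) and 1 had a p-value as small. The spread between libraries behind these q-values was not analysed here.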
